A study of Mus musculus with 6 samples.

Results

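The genes described here are 10 that carry fatty acids from the blood into fat: lipoprotein lipase (Lpl), its capillary anchor Gpihbp1, its maturation factor Lmf1, its inhibitors Angptl4 and Angptl8, the lipoprotein receptor Vldlr, and the uptake genes Cd36, Fabp4, Slc27a1 and Slc27a4. They were picked by gene symbol for their roles in this pathway, at a time when earlier results of these data were known. All 10 of 10 symbols were among the 55011 of the count table, and all 10 passed the filter on low counts that left 13859 genes for testing. The RNA came from undissociated visceral fat of C57BL/6 males, 30 weeks old, that were kept on low-fat food for 14 weeks and then on high-fat food for 16 weeks. Tissue was taken at zeitgeber time 0 h, when lights go on. Mice of both groups carried the Foxp3.Cre-YFP allele, which ties Cre recombinase to Foxp3, the gene that defines regulatory T cells. The groups differed in the clock gene Bmal1 (Arntl): 3 libraries were labelled Bmal1WT and 3 Bmal1KO. Regulatory T cells are thus the cells meant to lose Bmal1, whereas most of the 10 genes act in adipocytes and capillaries, which the driver does not target. Whether each numbered sample is its own mouse is not in the labels, and the p-values below cover only the variation among these libraries, which may be technical.

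Lipoprotein lipase splits the triglycerides of chylomicrons and very low density lipoproteins at the capillary wall. Adipocytes make the enzyme, LMF1 helps it fold in the endoplasmic reticulum, and GPIHBP1 on endothelial cells carries it to the capillary lumen. ANGPTL4 and ANGPTL8 restrain it according to feeding state, and the freed fatty acids cross the membrane with the help of CD36 and of the fatty acid transport proteins and are bound inside the cell by FABP4. PPARG, the nuclear receptor that drives fat cell formation, is known to drive several of these genes.

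Total counts per library ran from 6514620 to 9529198, and Bmal1KO replicate 1 was both the shallowest library and the one with counts on the most genes (30019, against 19009 to 20145 in the other 5). Levels are given in CPM, the usual depth-scaled count, here with TMM-adjusted library sizes. Arntl, the targeted gene, averaged 33.2 ± 6.16 CPM over the Bmal1WT libraries and 40.1 ± 8.06 CPM over the Bmal1KO libraries (SD, n = 3 each). Foxp3 had at most 3 counts in any library, so neither gene checks the genotype labels in whole tissue. Adipocyte markers were present in all 6 libraries, with 0 of 15 listed markers at 0 counts in any. Markers of epididymis and testis, organs next to this depot in males, summed to 338 CPM in Bmal1WT replicate 1 and to at most 3.61 CPM in the others. The 338 CPM came mainly from epididymal genes, while the listed protamine genes of testis were at 0 counts in that library.

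All 10 genes had a mean estimate below Bmal1WT in Bmal1KO fat, where 48.0% of all tested genes had a log2 fold change below 0, and 0 of them passed the quasi-likelihood test of edgeR after Benjamini-Hochberg adjustment. Of all 13859 genes, 0.00% passed at an adjusted p under 0.05, and 9.31% had an unadjusted p under 0.05. The 10 log2 fold changes ran from -0.78 for Gpihbp1 to -0.11 for Cd36, with a median of -0.29 against 0.02 over all tested genes. At an unadjusted p under 0.05 there were 2 of the 10, Angptl4 and Angptl8, both lower, and among all genes 4.26% were lower and 5.05% higher at that level. The same 2 genes were lower in every Bmal1KO library than in every Bmal1WT library, which held for 7.85% of all genes. None was higher in every Bmal1KO library, against 7.83% of all genes. With DESeq2, 0 of the 10 passed, where 0.167% of genes were called lower. Together the 10 genes took 2.66% ± 0.217 of all counts (SD, n = 3) in Bmal1WT and 2.41% ± 0.357 in Bmal1KO.

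**Figure D1:**
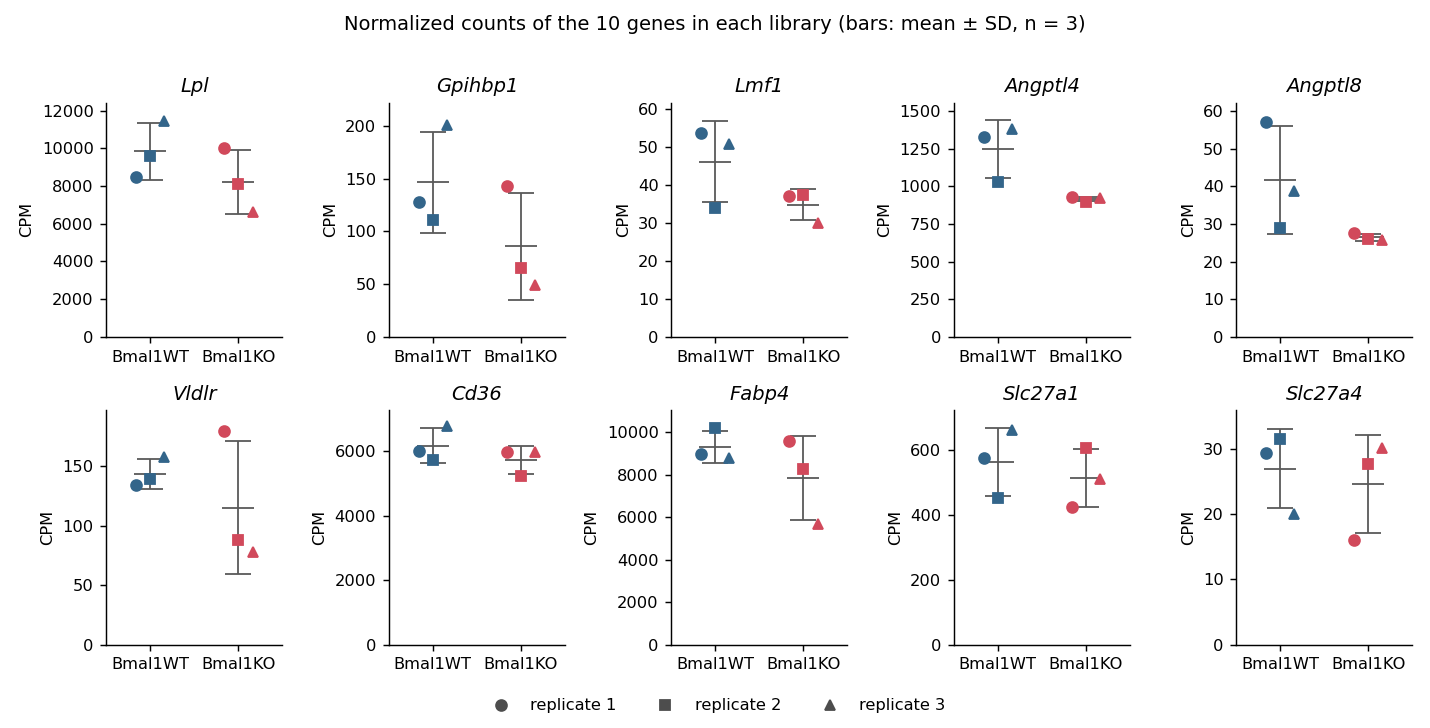
Level of each of the 10 genes in CPM (vertical axis, linear from 0) in the 3 Bmal1WT (blue) and 3 Bmal1KO (red) libraries, with the symbol giving the replicate and bars the mean and SD. For Angptl4 and Angptl8 all Bmal1KO libraries sit under all Bmal1WT libraries, and for Vldlr Bmal1KO replicate 1 is the highest of the 6 at 180 CPM.

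Fabp4, Lpl and Cd36 were among the most abundant transcripts of this tissue. By CPM, Lpl ranked 5, Fabp4 6 and Cd36 10 among the tested genes in Bmal1WT, and 4, 5 and 11 in Bmal1KO. To compare genes with each other, CPM were divided by the length of the principal transcript in kb. On this scale the order in Bmal1WT was Fabp4 (10389 CPM per kb), Lpl (2391), Cd36 (1817), Angptl4 (377), Slc27a1 (201), Gpihbp1 (178), Angptl8 (48.1), Lmf1 (24.8), Vldlr (17.995) and Slc27a4 (6.67). Slc27a1 overlapped with Gpihbp1, and Lmf1 with Vldlr, over the Bmal1WT libraries, and in Bmal1KO the libraries of Lpl and Cd36 also overlapped. The order of means was the same in Bmal1KO. With all annotated exons merged as the length, Cd36 (1721 CPM per kb in Bmal1WT) stood above Lpl (939) and Lmf1 (3.39) moved to the last place, so these places rest on the transcript model.

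Lpl (ENSMUSG00000015568.16, mm10 chr8:68880491-68907448, plus strand), the lipase itself, was at 8492, 9567 and 11456 CPM in Bmal1WT replicates 1 to 3 and at 9998, 8082 and 6616 CPM in Bmal1KO replicates 1 to 3. Bmal1KO replicates 2 and 3 lay under all Bmal1WT libraries, while replicate 1 lay inside their range, so the groups overlapped. The means were 9838 ± 1501 CPM (SD, n = 3) and 8232 ± 1696 CPM, a log2 fold change of -0.26 with SE 0.23 (edgeR adjusted p = 0.745). The 95% interval from -0.76 to 0.24 holds both a fall and a small rise.

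Gpihbp1 (ENSMUSG00000022579.10, mm10 chr15:75596628-75599481, plus strand), the endothelial protein that holds the lipase in the capillary, was at 128, 111 and 201 CPM in the Bmal1WT libraries and at 143, 65.0 and 48.8 CPM in the Bmal1KO libraries. Replicate 1 of Bmal1KO again lay inside the Bmal1WT range and replicates 2 and 3 well under it. The group means of 147 ± 47.8 and 85.7 ± 50.6 CPM (SD, n = 3) gave a log2 fold change of -0.78 (SE 0.38, 95% interval -1.64 to 0.08, edgeR adjusted p = 0.561), the lowest of the 10. This estimate depended on single libraries. Without Bmal1KO replicate 1 it was -1.37 and passed the test (edgeR adjusted p = 0.0411), in a fit that called 0.772% of all genes lower. Without Bmal1WT replicate 1 as well it was -1.45 and missed the threshold (edgeR adjusted p = 0.0641, 0.358% of genes called lower). Without Bmal1WT replicate 3 it was -0.48 and without Bmal1KO replicate 3 it was -0.50, neither of which passed. With no filter on low counts Gpihbp1 also passed (-0.81, edgeR adjusted p = 0.0308), where 0.226% of genes were called lower.

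Endothelial markers moved with Gpihbp1. Of 16 listed, 16 had a log2 fold change below 0 and 0 passed, with a median of -0.65, and none was at 0 counts in any library. Their summed level was 1037 to 1727 CPM in the Bmal1WT libraries and 646 to 1136 CPM in the Bmal1KO libraries. By library, their mean log2 level relative to the Bmal1WT mean was -0.13, -1.04 and -0.94 in Bmal1KO replicates 1 to 3, and that of Gpihbp1 was 0.02, -1.13 and -1.54. In log2 units, Gpihbp1 stood above the endothelial marker mean by 1.75, 1.92 and 1.76 in Bmal1WT and by 1.95, 1.73 and 1.22 in Bmal1KO. That difference between groups was -0.18 (exact two-sided permutation p = 0.7, adjusted p = 0.875 over 20 such comparisons). Its sign turned to 0.03 without Bmal1KO replicate 3. In bulk tissue, fewer cells of a type and less RNA per cell cannot be told apart, and the part of the endothelial marker level in the Gpihbp1 difference was not tested. Cldn5 and Car4, the endothelial markers of smallest p, averaged 246 ± 96.4 and 69.9 ± 32.9 CPM over the Bmal1WT libraries, against 109 ± 29.4 and 26.7 ± 8.98 CPM over the Bmal1KO libraries (SD, n = 3).

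Lmf1 (ENSMUSG00000002279.19, mm10 chr17:25579085-25662826, plus strand), needed for the lipase to fold, was at 53.7, 33.9 and 50.7 CPM in the Bmal1WT libraries and at 37.0, 37.3 and 30.0 CPM in the Bmal1KO libraries. Bmal1WT replicate 2 lay among the Bmal1KO libraries. The means were 46.1 ± 10.7 and 34.8 ± 4.10 CPM (SD, n = 3) and the log2 fold change was -0.41 (SE 0.22, 95% interval -0.89 to 0.07, edgeR adjusted p = 0.586). It stayed below 0 with any library left out, between -0.59 and -0.28.

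The inhibitors were the only members whose groups did not overlap. Angptl4 (ENSMUSG00000002289.16, mm10 chr17:33773750-33781830, minus strand), a fasting-induced inhibitor made by adipocytes, was at 1329, 1027 and 1383 CPM in the Bmal1WT libraries and at 926, 897 and 921 CPM in the Bmal1KO libraries. The Bmal1KO libraries lay close together, under the lowest Bmal1WT library. Means were 1246 ± 192 and 915 ± 15.3 CPM (SD, n = 3), a log2 fold change of -0.45 with SE 0.18 and a 95% interval of -0.83 to -0.06. The unadjusted p was 0.0283 and the edgeR adjusted p 0.477. With 1 library left out the log2 fold change ran from -0.57 to -0.36, so that no single library decided the direction. Without Bmal1KO replicate 1 it was -0.46.

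Angptl8 (ENSMUSG00000047822.8, mm10 chr9:21835510-21837347, plus strand), an inhibitor induced by feeding, lies within the gene Dock6, which is on the opposite strand, and shares no exonic base with it. Its levels were 57.0, 28.9 and 38.8 CPM in Bmal1WT and 27.5, 26.0 and 25.8 CPM in Bmal1KO. The lowest Bmal1WT library was only slightly above the highest Bmal1KO library, and Bmal1WT replicate 1 was the highest of all. Means were 41.6 ± 14.2 and 26.5 ± 0.926 CPM (SD, n = 3) and the log2 fold change was -0.65 (SE 0.25, 95% interval -1.20 to -0.10, unadjusted p = 0.0242, edgeR adjusted p = 0.477). Without Bmal1WT replicate 1 it was -0.35, and without Bmal1WT replicate 2 it was -0.86. The spread of both inhibitors was smaller in Bmal1KO, with a coefficient of variation of 1.68% for Angptl4 and 3.50% for Angptl8 against 15.4% and 34.2% in Bmal1WT. With 3 libraries a group, this difference in spread was not tested.

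The 250 bases before the start of Angptl8 are shown because it is 1 of the 2 genes whose groups did not overlap (RefSeq, GRCm38.p6, chr9:21835260-21835509, plus strand). Capitals would mark exact matches, on either strand, to the E-box CACGTG that BMAL1 with its partner CLOCK binds, to the nuclear receptor half-site AGGTCA, or to DR1, the repeat that PPARG binds with RXR (AGGNCA, any base, AGGNCA again), and this window has none.
Angptl8: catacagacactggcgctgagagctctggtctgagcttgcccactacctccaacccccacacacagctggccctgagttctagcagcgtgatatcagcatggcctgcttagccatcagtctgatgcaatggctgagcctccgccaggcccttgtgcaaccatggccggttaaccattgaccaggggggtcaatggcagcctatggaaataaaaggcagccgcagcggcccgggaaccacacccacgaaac

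The receptor Vldlr (ENSMUSG00000024924.14, mm10 chr19:27216484-27254231, plus strand), which binds triglyceride-rich lipoproteins and brings them to the lipase, was at 134, 139 and 157 CPM in the Bmal1WT libraries and at 180, 87.8 and 78.0 CPM in the Bmal1KO libraries. Bmal1KO replicate 1 lay above all Bmal1WT libraries and replicates 2 and 3 below them. The means of 143 ± 12.3 and 115 ± 56.1 CPM (SD, n = 3) differed by a log2 fold change of -0.32 (SE 0.28, 95% interval -0.93 to 0.29, edgeR adjusted p = 0.740). Without Bmal1KO replicate 1 the log2 fold change was -0.79 and passed the test (edgeR adjusted p = 0.0460), where 0.772% of genes were called lower. Without Bmal1WT replicate 1 as well it was -0.83 and missed the threshold (edgeR adjusted p = 0.0725, 0.358% of genes called lower). Without Bmal1KO replicate 3 it was -0.11. Relative to the mean of 15 adipocyte markers, Vldlr was at -1.70, -1.94 and -1.86 log2 units in Bmal1WT and -1.79, -1.75 and -1.70 in Bmal1KO. That difference was 0.08 (exact two-sided permutation p = 0.4, adjusted p = 0.727).

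**Figure D2:**
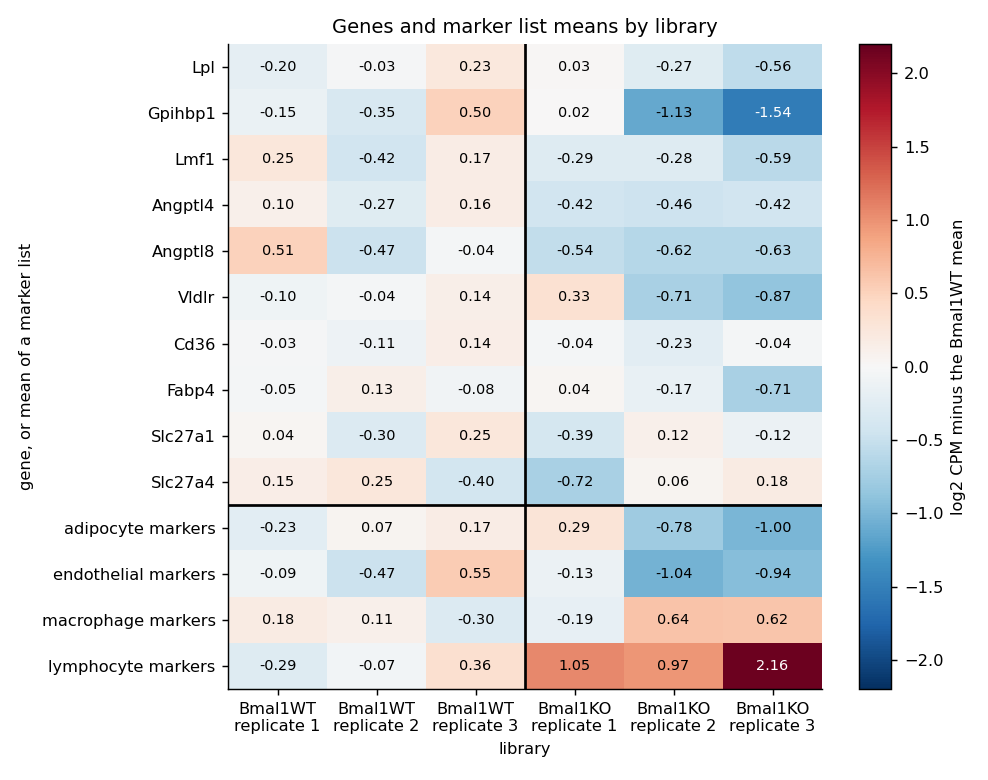
Each of the 10 genes (upper rows) and the mean of 4 marker lists (lower rows) in each of the 6 libraries, as log2 CPM minus the Bmal1WT mean, blue for lower and red for higher. The 10 genes were taken without a prior count and the marker lists with a prior count of 2. Bmal1KO replicates 2 and 3 are blue for Gpihbp1, Vldlr, adipocyte markers and endothelial markers, whereas Bmal1KO replicate 1 is at 0.02 for Gpihbp1 and 0.33 for Vldlr.

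Cd36 (ENSMUSG00000002944.15, mm10 chr5:17781690-17888801, minus strand), the main membrane protein of fatty acid uptake, was at 6017, 5728 and 6786 CPM in the Bmal1WT libraries and at 5981, 5235 and 5977 CPM in the Bmal1KO libraries. The groups overlapped, and Cd36 had the smallest estimate of the 10. Means were 6177 ± 547 and 5731 ± 429.6 CPM (SD, n = 3), with a log2 fold change of -0.11 (SE 0.19, edgeR adjusted p = 0.880). The 95% interval of -0.52 to 0.31 leaves room for a change of that size in either direction.

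Fabp4 (ENSMUSG00000062515.3, mm10 chr3:10204088-10208576, minus strand), the fatty acid carrier of the adipocyte cytosol, was at 8986, 10166 and 8772 CPM in the Bmal1WT libraries and at 9580, 8262 and 5686 CPM in the Bmal1KO libraries. Bmal1KO replicate 3 was the lowest library, and replicate 1 lay inside the Bmal1WT range. Means were 9308 ± 751 and 7843 ± 1980.4 CPM (SD, n = 3), a log2 fold change of -0.25 (SE 0.23, 95% interval -0.76 to 0.26, edgeR adjusted p = 0.765). Without Bmal1KO replicate 3 it was -0.07. Fabp5, the related carrier of macrophages and other cells, was at 203 ± 15.7 and 205 ± 46.1 CPM. The log2 ratio of Fabp5 to Fabp4 was -5.50, -5.74 and -5.31 in Bmal1WT and -5.95, -5.25 and -4.54 in Bmal1KO. The groups overlapped (difference 0.27, exact two-sided permutation p = 0.6).

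The genes of the fatty acid transport proteins, which couple uptake to activation with coenzyme A, ran little alike over the 6 libraries (Pearson r of log2 CPM = 0.14). Slc27a1 (ENSMUSG00000031808.7, mm10 chr8:71568882-71587302, plus strand), the insulin-responsive form FATP1, was at 573, 452 and 662 CPM in the Bmal1WT libraries and at 423, 604 and 511 CPM in the Bmal1KO libraries. Slc27a4 (ENSMUSG00000059316.2, mm10 chr2:29802634-29817522, plus strand), which encodes FATP4, was at 29.4, 31.5 and 20.1 CPM in the Bmal1WT libraries and at 16.1, 27.7 and 30.2 CPM in the Bmal1KO libraries. For both, Bmal1KO replicate 1 was the lowest of the 6 libraries and replicates 2 and 3 lay inside the Bmal1WT range. Their log2 fold changes were -0.13 (SE 0.20, 95% interval -0.57 to 0.30) and -0.13 (SE 0.28, 95% interval -0.75 to 0.49), with edgeR adjusted p = 0.855 and 0.908. The sign turned for Slc27a1 without Bmal1WT replicate 3 (0.0046), and for Slc27a4 without Bmal1KO replicate 1 (0.10) and without Bmal1WT replicate 2 (0.00020).

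The windows of Cd36 and Slc27a1 are shown because they hold the only matches among the 9 start sites of the 6 genes with a RefSeq promoter entry (Lmf1, Angptl8, Vldlr, Cd36, Slc27a1 and Slc27a4). Each is the 250 bases before a start, 5′ to 3′ on the gene's strand. Cd36 (chr5:17835897-17836146, minus strand) has an AGGTCA half-site, read on the other strand and starting 228 bases before the start. The third of 3 Slc27a1 starts (chr8:71570344-71570593, plus strand) has a CACGTG 202 bases before it. Of all 32851 windows of this length, 14% hold AGGTCA, 6.02% hold CACGTG and 0.338% hold the repeat, which none of the 9 has. Any match to the repeat in which both copies read AGGTCA also counts as a match to the half-site. These matches describe letters and not binding, and no measurement here bears on which start was used.
Cd36: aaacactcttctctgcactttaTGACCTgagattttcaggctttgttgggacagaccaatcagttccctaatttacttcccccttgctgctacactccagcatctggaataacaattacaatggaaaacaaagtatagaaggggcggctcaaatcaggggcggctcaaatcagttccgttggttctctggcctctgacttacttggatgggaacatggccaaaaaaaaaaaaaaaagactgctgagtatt
Slc27a1: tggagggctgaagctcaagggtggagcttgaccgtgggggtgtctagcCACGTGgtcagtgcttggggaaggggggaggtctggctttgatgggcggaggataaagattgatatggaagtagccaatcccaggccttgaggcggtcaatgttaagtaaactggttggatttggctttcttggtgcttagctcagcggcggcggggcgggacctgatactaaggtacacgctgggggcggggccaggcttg

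Counting libraries under the whole Bmal1WT range, Bmal1KO replicate 1 had 4 of the 10 (Angptl4, Angptl8, Slc27a1 and Slc27a4, background 27.8% of all genes), and Vldlr above it. Replicates 2 and 3 had 7 of 10 each (backgrounds 29.8% and 30.5%), sharing Lpl, Gpihbp1, Angptl4, Angptl8, Vldlr and Fabp4. With Bmal1KO replicate 1 left out, those 6 genes were lower in every Bmal1KO library, against 17.1% of all genes. With Bmal1WT replicate 1 left out as well, they were again 6, against 23.0%. Pearson r of log2 CPM over the 6 libraries was positive for 36 of the 45 pairs of members and ran from -0.67 to 0.94. It was 0.94 between Lpl and Gpihbp1, 0.94 between Gpihbp1 and Vldlr, and 0.88 between Lpl and Vldlr. It was 0.89 between Angptl4 and Angptl8 and 0.90 between Angptl8 and Lmf1, and 0.27 between Angptl8 and Lpl. Gpihbp1 also ran with Fabp4 (r = 0.74), Lmf1 (r = 0.72), Angptl4 (r = 0.71), Cd36 (r = 0.66) and Angptl8 (r = 0.55). Fabp4 ran with Vldlr (r = 0.80) and Lpl (r = 0.78), but not with Cd36 (r = 0.003). Angptl4 ran with Lmf1 (r = 0.89), Cd36 (r = 0.72) and Lpl (r = 0.52). Slc27a4 ran against Vldlr (r = -0.67) and Lpl (r = -0.63). These values describe 6 libraries that share a tissue, a depth range and 2 groups, and all 10 genes had lower means in Bmal1KO. The share of positive pairs among all genes was not computed, and no r was tested.

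**Figure D3:**
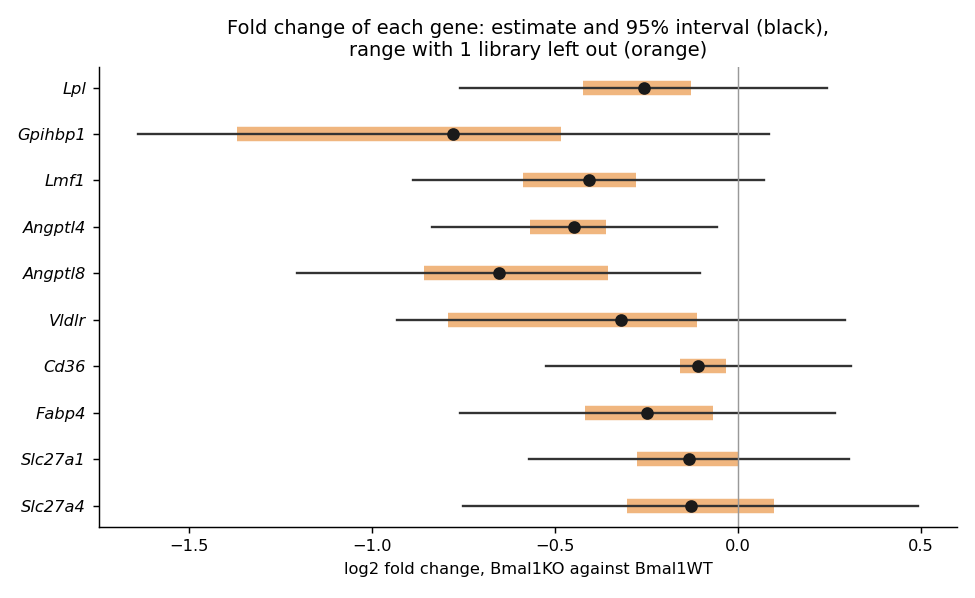
Log2 fold change of Bmal1KO against Bmal1WT (horizontal axis) for each of the 10 genes, with the edgeR estimate as a point, its 95% interval as a black line and the range over the 6 fits with 1 library left out as an orange bar. All points lie below 0, only the intervals of Angptl4 and Angptl8 exclude 0, and the orange bar of Gpihbp1 reaches from -1.37 to -0.48.

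Outside the 10, the genes that ran most like each member over the 6 libraries were not on any list used here. For each member 3 genes were taken by Pearson r of log2 CPM among 8673 genes with a mean of at least 10 CPM, giving r from 0.952 to 0.999, as a description of the closest among many candidates. Lpl ran most like the Wnt inhibitor Sfrp5 (r = 0.991) and the growth factor Fgf10 (r = 0.990). Vldlr ran most like Scd1, the main desaturase of fat (r = 0.996), and Gpihbp1 like Mtarc1 (r = 0.999) and Agt, the angiotensin precursor (r = 0.994). Angptl4 ran most like Ddx1 (r = 0.993), Angptl8 like Aspn (r = 0.982), Cd36 like Atxn2 (r = 0.996) and Fabp4 like Ube2r2 (r = 0.998).

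Ratios between members, as log2 differences within a library, were compared for 8 pairs, and the groups overlapped in all 8. Single genes separated the groups in 7.85% of cases as lower and 7.83% as higher in every Bmal1KO library. With 3 libraries a group, an exact permutation p cannot go below 0.1 (2-sided). The ratio of Gpihbp1 to Lpl, of anchor to enzyme, was -6.05, -6.43 and -5.83 in Bmal1WT and -6.12, -6.95 and -7.08 in Bmal1KO, a difference of -0.61 (exact permutation p = 0.2, adjusted p = 0.933 over the 8). The ratio of Angptl4 to Lpl was -2.68, -3.22 and -3.05 in Bmal1WT and -3.43, -3.17 and -2.84 in Bmal1KO, a difference of -0.17 (exact permutation p = 0.5). For Angptl8 to Lpl the difference was -0.33 (exact permutation p = 0.6), and it was 0.03 without Bmal1WT replicate 1. Because its p cannot go below 0.1, this test could not decide whether an inhibitor level moved apart from the lipase.

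Adipocyte markers were lower in part of the Bmal1KO libraries as well. Of 15 tested, 14 had a log2 fold change below 0, 1 above and 0 passed, with a median of -0.37. Their summed level was 21468 to 28865 CPM in Bmal1WT and 28876, 13680 and 12284 CPM in Bmal1KO replicates 1 to 3. Aqp7, the glycerol channel, was at 219.5 ± 26.3 CPM in the Bmal1WT group and 142 ± 45.5 CPM in the Bmal1KO group (SD, n = 3), and Cidea, a lipid droplet protein, went the other way from 3.52 ± 0.845 to 8.55 ± 0.444 CPM, without passing. Set against the adipocyte marker mean, the lipase was at 4.29, 4.16 and 4.32 log2 units in the Bmal1WT libraries and at 4.004, 4.77 and 4.70 in the Bmal1KO libraries. Lpl and Cd36 thus stood higher relative to that mean in Bmal1KO replicates 2 and 3, and lower in replicate 1, than in any Bmal1WT library. The group difference was 0.23 for Lpl, 0.39 for Cd36, 0.22 for Fabp4 and 0.06 for Angptl4 (exact permutation p = 0.4, 0.4, 0.4 and 1). Its size depended on how the markers were summarized: with their median it was 0.53, 0.69, 0.52 and 0.36 for these genes. Of the 20 comparisons of a member with the adipocyte or endothelial mean, 0 separated the groups. Among all genes, 7.85% lay lower and 7.83% higher in every Bmal1KO library, so a count of 0 says little about the members. The part of the adipocyte marker level in the lower member levels was not tested. Cd36, Fabp4 and Lpl are also made by macrophages, whose 14 markers summed to between 8919.9 and 13296 CPM in Bmal1WT and between 8845 and 18735 CPM in Bmal1KO. Of these 14, 12 had a log2 fold change above 0 and 0 passed. The 12 lymphocyte markers summed to between 65.4 and 95.3 CPM in the Bmal1WT libraries and between 141 and 359.8 CPM in the Bmal1KO libraries, with 11 of 12 above 0 and 0 that passed. The 9 mesothelial markers summed to between 243 and 476 CPM in the Bmal1WT libraries and between 527 and 569 CPM in the Bmal1KO libraries, with 9 of 9 above 0. Pericyte and smooth muscle markers summed to between 497 and 522 CPM and between 335 and 449 CPM, with 6 of 6 tested below 0. None of these passed, and the part of the 4 lists in the member levels was not tested.

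**Figure D4:**
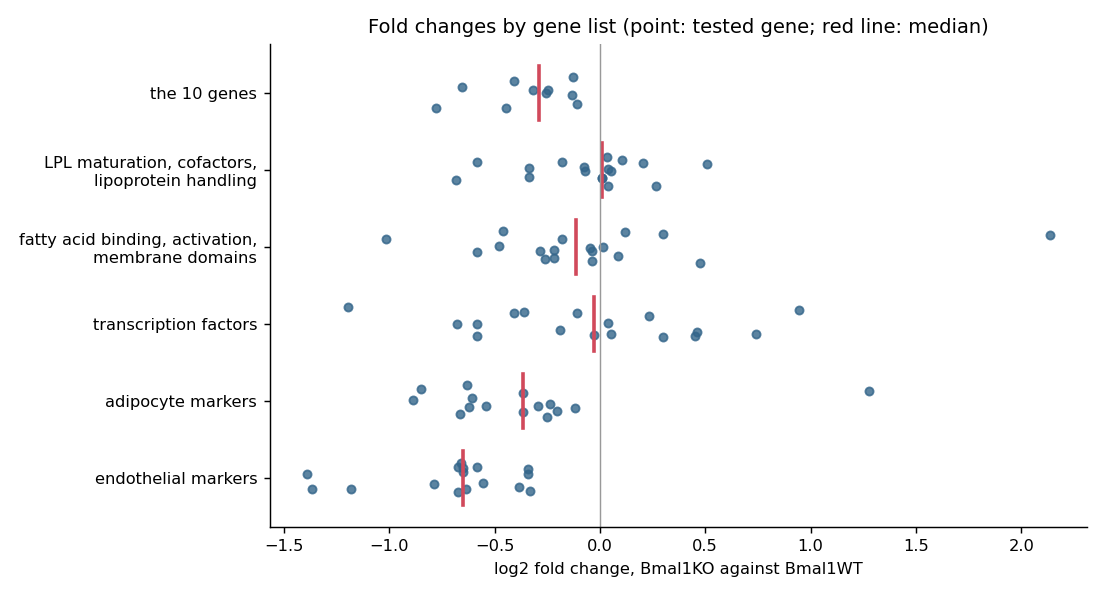
Log2 fold change of Bmal1KO against Bmal1WT (horizontal axis) of every tested gene (points) on each list (vertical axis), with the list's median as a red line. The 10 genes have a median of -0.29, between the adipocyte markers (-0.37) and the list of fatty acid binding and activation (-0.11), and the endothelial markers stand lowest at -0.65.

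The next list held partners of the lipase in maturation, cofactor supply and lipoprotein handling. Of 21 listed genes 17 were tested, 10 had a log2 fold change above 0 and 7 below, 0 passed in either direction, and the median was 0.01. Sel1l, the endoplasmic reticulum partner that lets the lipase leave, was at 100.1 ± 11.2 CPM in the Bmal1WT group and 101 ± 13.3 CPM in the Bmal1KO group (SD, n = 3). The genes of smallest p were Pcsk6, a convertase that can cleave the lipase (16.5 ± 8.55 and 10.2 ± 2.23 CPM), the receptor Lrp1 (392 ± 56.8 and 470.4 ± 49.9 CPM), Sdc1, a heparan sulfate carrier (100.5 ± 19.7 and 79.5 ± 19.9 CPM), and the HDL receptor Scarb1 (132 ± 48.3 and 105 ± 2.52 CPM). Of these, none passed the test, with log2 fold changes of -0.69, 0.26, -0.34 and -0.34. Apoc2, the lipase's cofactor, was listed at 0 counts in all 6 libraries. In the annotation it shares 646 of its 813 exonic bases with the same-strand gene Gm44805, and how reads of shared exons were counted is not given in the sources used here.

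Genes of fatty acid binding, activation and membrane domains numbered 24, of which 18 were tested. There were 6 above 0 and 12 below, 0 passed, and the median was -0.11. Cavin1 and Cav1 build caveolae, membrane pits that are dense in adipocytes and endothelium. Cavin1 was at 3687, 3772 and 3701 CPM in the Bmal1WT libraries and at 2993, 2444 and 2021 CPM in the Bmal1KO libraries. All Bmal1KO libraries thus lay under all Bmal1WT libraries (log2 fold change -0.58, SE 0.20, edgeR adjusted p = 0.439). Cav1 was at 3045 ± 278 and 2187 ± 795 CPM (SD, n = 3), and Dbi, the acyl-CoA binding protein, at 4318 ± 418 and 3135 ± 669 CPM with no overlap (-0.46, SE 0.21, edgeR adjusted p = 0.535). Cavin1 and Dbi were the 2 of 18 tested here that lay lower in every Bmal1KO library (11.1%), which held for 7.85% of all genes. Slc27a6, a further transport protein, had 13, 0 and 7 counts in Bmal1WT and 24, 26 and 28 in Bmal1KO (edgeR adjusted p = 0.508). These counts are few, and 1 Bmal1WT library was at 0, so its fold is not given. Acsl1, the main acyl-CoA synthetase of fat, was at 1192 ± 235 and 1161 ± 206 CPM, named here after its values were seen.

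Transcription factors known to act on these genes numbered 18, of which 17 were tested, 8 above 0 and 9 below, with a median of -0.03 and 0 that passed. The 3 of smallest p each lay lower in every Bmal1KO library than in every Bmal1WT library, 3 of 17 where 7.85% of all genes did. Meox2, a factor of capillary endothelium known to drive fatty acid uptake genes in muscle and heart, was at 26.6, 32.9 and 47.9 CPM in the Bmal1WT libraries and at 18.8, 11.7 and 16.5 CPM in the Bmal1KO libraries (log2 fold change -1.20, SE 0.28, edgeR adjusted p = 0.382). Pparg was at 216, 236 and 247 CPM in the Bmal1WT libraries and at 180, 138 and 118 CPM in the Bmal1KO libraries (-0.68, SE 0.18, edgeR adjusted p = 0.414). Nr1h3, the liver X receptor alpha, was at 214, 191 and 206 CPM and at 157, 159 and 145 CPM (-0.41, SE 0.14, edgeR adjusted p = 0.454). For Pparg and Nr1h3, Bmal1KO replicate 1 also lay below the Bmal1WT libraries, as it did for Angptl4, Angptl8, Slc27a1 and Slc27a4 among the 10 and for 27.8% of all genes. The next gene by p, the glucocorticoid receptor Nr3c1, was at 42.1 ± 3.16 and 51.8 ± 8.503 CPM (SD, n = 3) with overlap between groups.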

How the data were processed

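The authors deposited 1 table of raw counts by symbol, and the submitters' processing notes name STAR 2.7.3a, featureCounts and mm10. Which annotation and strand setting they used, and how multi-mapping reads were handled, is not given in the sources used here. Per the labels' protocols, 2 ng of RNA was reverse transcribed from oligo(dT), amplified, cut with Nextera XT and sequenced as 38 bp pairs. Such libraries mark no strand and carry no molecular identifiers.

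The test was edgeR 4.0.16 (R 4.3.3): filterByExpr, TMM scaling, robust quasi-likelihood F-test of Bmal1KO against Bmal1WT without covariates, Benjamini-Hochberg adjustment over 13859 genes, threshold 0.05. The SE is the absolute coefficient divided by the square root of F, and intervals are 95%. Log2 CPM use a prior count of 2. Ratios and levels relative to marker means were compared by exact permutation over libraries. The fit was tested on simulated counts.

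Groups and replicate numbers came from sample titles. The members and lists were chosen with earlier results of these data known. The text names all 10 members, Arntl, Foxp3, Pparg, up to 4 genes of smallest p per pathway list and 2 per marker list, and the most alike genes by r. Sel1l, Apoc2 and Acsl1 were added after their values were seen, and Fabp5 was fixed through its ratio. Of the 16 adipocyte markers, 15 matched a symbol. Coordinates and lengths are from GENCODE M21 (mm10) and promoters from RefSeq (GRCm38.p6). Alternatives were DESeq2 1.42.0, limma 3.58.1 voom with quality weights, other scalings and filters, the replicate number as a block, and libraries left out.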

Additional observations from a re-analysis of the deposited data

How the results depend on the processing

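For the 10 members, all log2 fold changes stayed below 0 with DESeq2's size factors, library size alone (which moved the median of all genes by 0.09), no filter, at least 1 CPM in 3 libraries, DESeq2, limma voom and the replicate block. With 1 library left out, 0 to 2 members passed edgeR's test (2 without Bmal1KO replicate 1, Gpihbp1 and Vldlr), and with no filter 1 passed (Gpihbp1). Of all genes tested in those fits, 0.772% were called lower without Bmal1KO replicate 1 and 0.226% with no filter. Leaving out Bmal1WT replicate 1 and Bmal1KO replicate 1 together, 0 passed, with Gpihbp1 at -1.45 (adjusted p = 0.0641). In that fit Slc27a1 was at 0.0068 and Slc27a4 at 0.17, the opposite sign. With 1 library left out, Slc27a1 ran from -0.28 to 0.0046 and Slc27a4 from -0.30 to 0.10.

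Members lower in every Bmal1KO library numbered 2 (7.85% of all genes), 6 without Bmal1KO replicate 1 (17.1%) and 6 without that and Bmal1WT replicate 1 (23.0%), alternatives chosen after seeing the data. Over all genes the test called 0, with 1290 at an unadjusted p under 0.05. It called 186 of 34517 genes with no filter, 60 of 14400 with DESeq2 and 61 of 13958 without both first replicates. With 1 library left out it called 0 to 156 (156 of 14247 without Bmal1KO replicate 1). Of the list genes 0 were called, against 14 with no filter, 7 with DESeq2, 0 to 15 with 1 library left out and 8 without both first replicates. The causes were not tested.

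Of the 8 ratios, those whose groups did not overlap numbered 0, and 0 to 3 with 1 library left out. Of the 20 levels relative to marker means they numbered 0, and 0 to 11 with 1 library left out. Both largest counts came without Bmal1KO replicate 1, where 17.1% of all genes lay lower in every Bmal1KO library. With all libraries, 7.85% of all genes lay lower and 7.83% higher in every Bmal1KO library. Signs turned when 1 library was left out for Lmf1 to Lpl (-0.31 to 0.11), Angptl8 to Lpl (-0.54 to 0.028), Slc27a4 to Slc27a1 (-0.35 to 0.25), Fabp4 to Cd36 (-0.30 to 0.077) and Fabp5 to Fabp4 (-0.086 to 0.62). Against the adipocyte mean they turned for Lmf1 (-0.13 to 0.46), Angptl4 (-0.19 to 0.45), Angptl8 (-0.36 to 0.27) and Slc27a4 (-0.078 to 1.01), and against the endothelial mean for Gpihbp1 (-0.34 to 0.032) and Angptl8 (-0.19 to 0.41). With the median of the markers, Angptl8 was at 0.20 against adipocyte and -0.021 against endothelial markers, from -0.10 and 0.11 with the mean.

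The replicate numbers showed no sign of pairing the libraries: deviations of same-numbered libraries correlated at -0.07, 0.09 and -0.03. With 3 libraries a group, these values cannot settle whether the samples were paired. With the replicate block 0 members and 0 genes were called, and Gpihbp1 was at -0.87. The floor of 3 counts was 0.323 to 0.451 CPM, under every member's level. The shallowest library had 107 counts of Slc27a4 and 183 of Angptl8, and the effect of depth was not tested.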
